A study of Homo sapiens with 6 samples.

Results

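The 45 genes described here belong to the TGF-beta and BMP signalling pathway and were taken by symbol from a table of 35322 genes, as ligands, latency proteins, antagonists, receptors, SMADs, inhibitors and ID targets. All 45 were in the table, and 42 had enough reads to be tested, while BMP7, NOG and GREM1 did not. RNA was measured in 22Rv1, an established human prostate carcinoma cell line grown in serum-containing RPMI medium and labelled as untreated, although the study's methods kept cells infected with shRNA viruses under puromycin selection. The 6 libraries comprised 2 of control cells, whose genotype label is WT, and 2 each of the knockdown lines ZMYND11 kd1 and ZMYND11 kd2, in which ZMYND11, a chromatin reader and corepressor, was knocked down. The study used lentiviral shRNAs, and its account of RNA sequencing in 22Rv1 names control shRNAs for the control cells, beside their WT label. Which shRNA each knockdown line carried was not given in the sources used here. The labels did not say whether the 2 libraries of a group came from separate cultures, so the p-values measure the spread between these libraries, which may be technical.

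Ligands of the TGF-beta family are secreted, some in a latent form held by binding proteins, and join type I and type II receptor kinases on the cell surface. The activated type I receptor phosphorylates SMAD2 and SMAD3 after TGF-beta or activin, or SMAD1, SMAD5 and SMAD9 after a BMP, and these enter the nucleus with SMAD4. The ID genes are classical targets of the BMP branch and encode inhibitors of basic helix-loop-helix factors, while SMAD6, SMAD7 and BAMBI are induced by the signal and feed back on it.

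The libraries held 26844128 to 38193748 counts, and ZMYND11 itself was lower in both knockdown lines, with log2 fold changes of -2.35 ± 0.066 (SE) in kd1 and -2.64 ± 0.067 in kd2. Of 16510 genes tested with edgeR, 78.0% were called (adjusted p under 0.05, edgeR quasi-likelihood test) in kd1 against control, with 38.2% higher and 39.8% lower, and 73.4% were called in kd2 against control, with 36.5% higher and 36.9% lower. Between kd2 and kd1, 68.8% were called, with 34.9% higher and 33.8% lower in kd2. All 10 prostate epithelial markers were detected, at 121 to 63490 counts, although KLK2, KLK3 and TMPRSS2 were lower in both knockdown lines. The 5 endothelial markers stayed at 7 counts or fewer in any library, and the immune markers CD3E, CD68 and MS4A1 at 5 counts or fewer, while PTPRC had 5 to 15 and CD14 16 to 117. The 5 fibroblast markers summed to 33.7 CPM in control (CPM, normalized counts per 1000000 counts of the library), 86.8 in kd1 and 44.4 in kd2, most of it from COL1A1, and their part in the results was not tested. In bulk RNA, fewer cells expressing a gene and less RNA per cell cannot be told apart.

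The ID genes, the antagonist NBL1, BMP2 and the inhibitor BAMBI were higher in both knockdown lines than in control, and the receptor ACVR2B and the ligand GDF11 were lower in both. Of the 42 genes tested, 36 (85.7%) were called in kd1, 22 higher and 14 lower, and 34 (81.0%) were called in kd2, 18 higher and 16 lower. The corresponding shares over all genes were 78.0% and 73.4%. The median log2 fold change of the 42 was 0.23 in kd1 and 0.17 in kd2, beside -0.030 and -0.028 over all genes tested. With library totals alone it was -0.13 and 0.0026, and after correction for GC content and transcript length 0.53 and 0.31. At least 1.5-fold and called were 28 of the 42 (66.7%) in kd1, 18 (42.9%) in kd2 and 20 (47.6%) in kd2 against kd1, beside 59.7%, 51.1% and 44.8% of all genes tested. Across the 2 knockdowns, 15 genes (35.7%) were higher in both, 10 (23.8%) were lower in both and 5 (11.9%) were called in opposite directions with the difference also called. Over all genes tested these shares were 25.6%, 27.0% and 9.10%. Both comparisons share the 2 control libraries, so the values are given side by side and their likeness is not a separate result. In kd2 against kd1, a comparison without the controls, 36 of the 42 (85.7%, beside 68.8% over all genes) were called, 17 higher and 19 lower in kd2. With libraries scaled by their total counts alone, the split of calls became 15 higher and 19 lower in kd1, and 21 higher and 13 lower in kd2 against kd1. That scaling shifted the median of all genes to -0.38 in kd1, -0.20 in kd2 and 0.21 in kd2 against kd1. After correction for GC content and transcript length, the split in kd2 against control became 22 higher and 11 lower.

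**Figure D1:**
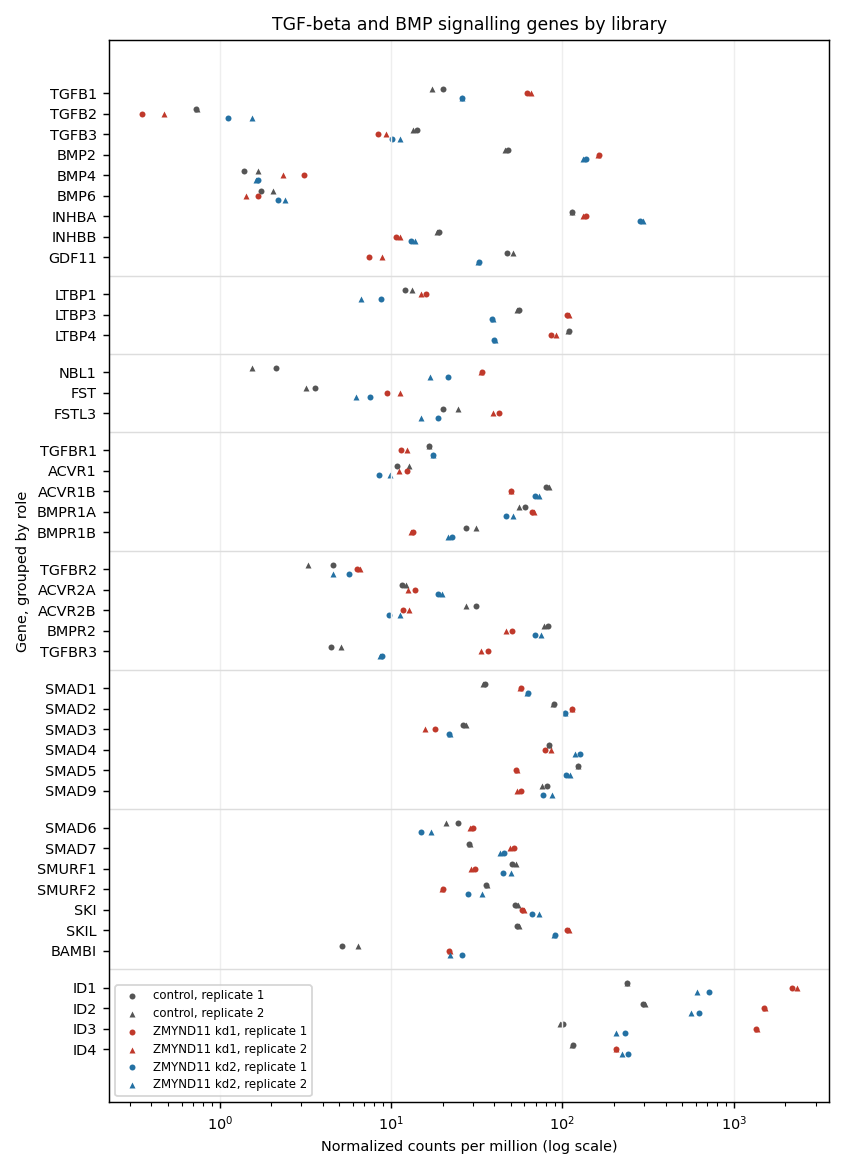
Normalized level (CPM, horizontal log axis) of the 42 tested TGF-beta and BMP genes in each of the 6 libraries, grouped by role from ligands at the top to ID genes at the bottom. Points of one colour are the 2 libraries of a group, and ID1 lies at 238 and 240 CPM in control and at 2192 and 2327 CPM in kd1.

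Of the 10 ligand genes, 9 were tested, and 7 (77.8%, beside 78.0% of all genes) were called in kd1 and 6 (66.7%, beside 73.4%) in kd2. BMP2, a BMP ligand acting through SMAD1 and SMAD5, was at 47.9 and 46.2 CPM in the control libraries, 164 and 162 in kd1, and 138 and 132 in kd2. The 3 groups did not overlap, and kd1 was 3.46-fold and kd2 2.87-fold higher than control (log2 1.79 ± 0.057 and 1.52 ± 0.056, SE; edgeR adjusted p = 1.57e-12 and 1.25e-11). TGFB1, the prototype TGF-beta ligand, was at 20.1 and 17.4 CPM in control, 62.5 and 66.0 in kd1, and 26.0 and 25.8 in kd2. It was 3.43-fold higher in kd1 and 1.39-fold higher in kd2, and kd2 lay below kd1 by a log2 difference of -1.31 ± 0.078 (edgeR adjusted p = 2.4e-09). A stretch of 215 exonic bases of TGFB1 overlaps HNRNPUL1 on the other strand, which had 4818 to 6486 counts per library, and whether the counting used strand was not given in the sources used here.

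GDF11, a ligand of the activin type that signals through SMAD2 and SMAD3, moved the other way. It was at 47.2 and 51.4 CPM in control, 7.39 and 8.88 in kd1, and 32.5 and 32.3 in kd2. The log2 fold change was -2.60 ± 0.097 in kd1 and -0.60 ± 0.083 in kd2 (edgeR adjusted p = 6.92e-12 and 1.21e-05), which made kd1 6.08-fold and kd2 1.52-fold lower than control. INHBA, the activin A subunit, showed the reverse order of the knockdowns, with 113 CPM in both control libraries, 137 and 131 in kd1, and 283 and 297 in kd2. It was 2.56-fold higher in kd2 and 1.19-fold higher in kd1, where the value turned from a log2 of 0.25 to -0.11 when libraries were scaled by their totals alone and to 0.88 after correction for GC content and transcript length. INHBB, the activin B subunit, and TGFB3 were lower in both lines, INHBB at log2 -0.78 and -0.48 and TGFB3 at -0.64 and -0.37 in kd1 and kd2. The TGFB3 call in kd2 was lost without control replicate 1 (adjusted p = 0.0642).

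The remaining ligands had few reads. BMP4 was at 1.38 and 1.67 CPM in control and 3.12 and 2.33 in kd1, where it was called higher (log2 0.84 ± 0.26, edgeR adjusted p = 0.00866), a call that was lost without control replicate 1, without kd1 replicate 1, or with library totals alone (0.49, adjusted p = 0.1). BMP4 in kd2 had a log2 value of 0.12 and was not called. BMP6 had log2 values of -0.29 and 0.27, and TGFB2 had -0.83 and 0.86, and neither gene was called in either knockdown. For TGFB2, at 12 to 53 counts per library, the value in kd2 sat at the threshold (edgeR adjusted p = 0.0501) and kd2 lay above kd1 by 1.69 ± 0.41 (adjusted p = 0.00192). BMP7 had 0 to 4 counts per library.

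The latent TGF-beta binding proteins tether latent TGF-beta in the extracellular matrix, and all 3 genes were called in both knockdowns, as were 78.0% and 73.4% of all genes in kd1 and kd2. LTBP4 was at 109 and 107 CPM in control, 85.3 and 91.5 in kd1, and 40.1 and 40.5 in kd2. It was lower in both lines, by log2 -0.29 ± 0.058 in kd1 and -1.43 ± 0.060 in kd2 (edgeR adjusted p = 0.000339 and 4.68e-11). LTBP3 went in opposite directions, at 56.2 and 54.1 CPM in control, 106 and 109 in kd1, and 38.6 and 39.3 in kd2. Its log2 fold change was 0.96 ± 0.059 in kd1 and -0.50 ± 0.061 in kd2, and the difference between the knockdowns was -1.46 ± 0.060 (edgeR adjusted p = 6.35e-11). LTBP1 had 365 and 409 counts in control, 540 and 444 in kd1, and 314 and 230 in kd2. It was called higher in kd1 (log2 0.30 ± 0.13, edgeR adjusted p = 0.0441) and lower in kd2 (-0.70 ± 0.13, adjusted p = 0.000274). The kd1 call of LTBP1 was lost on leaving out any control or kd1 library, and the value was -0.058 under scaling by library totals alone and 0.76 (adjusted p = 2.85e-05) after the GC and length correction. The kd1 call was also lost with a replicate block (edgeR adjusted p = 0.0633), at least 10 counts in every library (edgeR adjusted p = 0.0845) and the DESeq2 Wald test (adjusted p = 0.0876).

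Of the 5 secreted antagonist genes, 3 were tested. NBL1, also known as DAN, binds BMPs and keeps them from their receptors, and it had the largest fold change of the 42 genes in both knockdowns. It had 65 and 48 counts in control, 1150 and 995 in kd1, and 772 and 582 in kd2, or 2.14 and 1.55, 33.9 and 33.6, and 21.6 and 17.0 CPM. No library of a knockdown came near the control libraries, and the level was 18.3-fold higher in kd1 and 10.5-fold higher in kd2 (log2 4.195 ± 0.16 and 3.39 ± 0.16; edgeR adjusted p = 8.02e-12 and 1.78e-10). The readthrough gene MICOS10-NBL1 carried counts equal to those of NBL1 in every library, so these reads cannot be assigned to one of the 2 gene models. Its upstream partner MICOS10 had 432 to 953 counts per library. The gap between the knockdowns was log2 -0.80 ± 0.11 and was no longer called after correction for GC content and transcript length (-0.15, adjusted p = 0.201).

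FST encodes follistatin, which binds activins, and it was at 3.61 and 3.19 CPM in control, 9.42 and 11.3 in kd1, and 7.50 and 6.25 in kd2. It rose by log2 1.61 ± 0.16 and 1.02 ± 0.17 (edgeR adjusted p = 4.05e-07 and 7.61e-05). FSTL3, a follistatin-like binder of activin and myostatin, was at 20.2 and 24.6 CPM in control, 42.8 and 39.3 in kd1, and 18.9 and 14.9 in kd2. FSTL3 was higher in kd1 (0.87 ± 0.11) and lower in kd2 (-0.40 ± 0.12, adjusted p = 0.00693). The kd2 call of FSTL3 was lost without control replicate 2 (adjusted p = 0.124), and the kd1 call after the GC and length correction (adjusted p = 0.0504). NOG, encoding the BMP antagonist noggin, had 0 counts in both control libraries, 10 and 12 in kd1, and 1 and 0 in kd2. Set against a floor of 3 counts over the 2 control libraries, NOG in kd1 was at least 7.09-fold higher, without a test. GREM1 had 0 counts in every library.

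**Figure D2:**
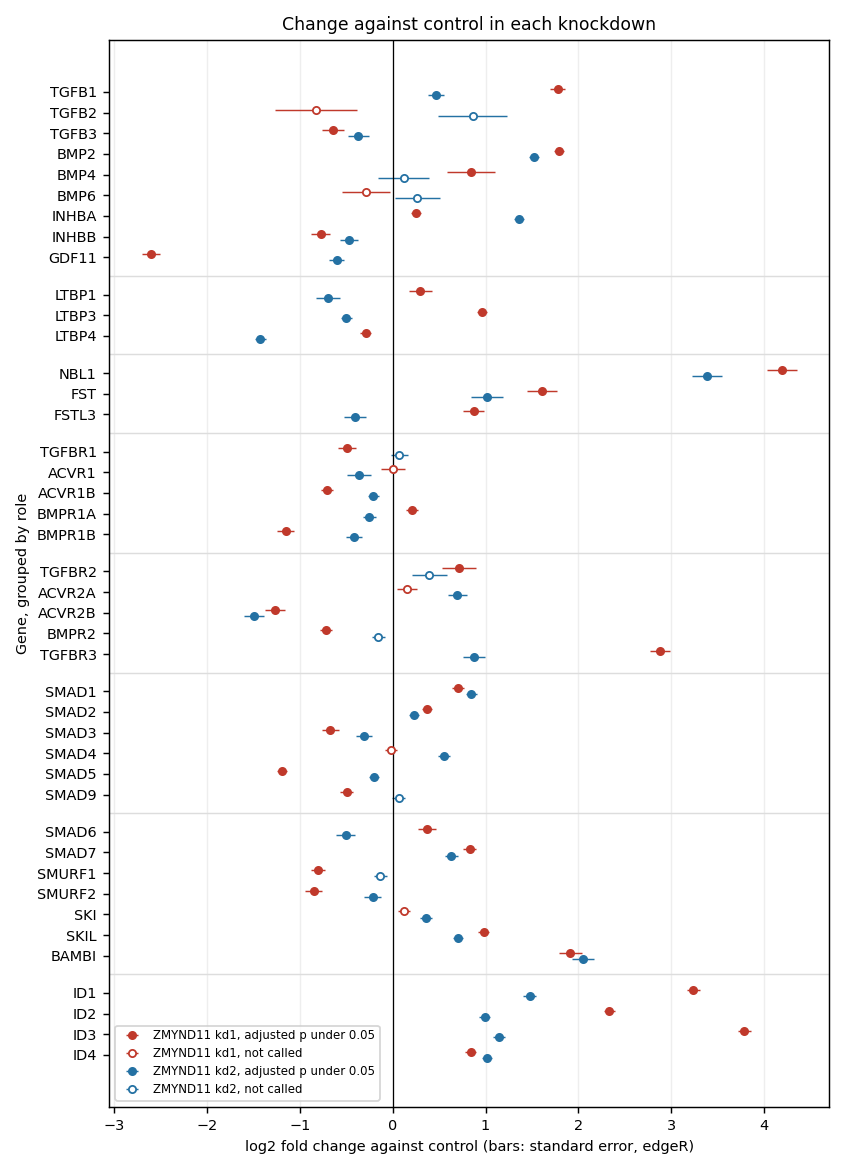
Log2 fold change against control (horizontal axis) of the 42 tested genes in kd1 and kd2, with the edgeR standard error as bars and open symbols for genes not called at an adjusted p of 0.05. NBL1 and ID3 lie farthest to the right and GDF11 farthest to the left in kd1, and LTBP1, LTBP3, FSTL3, BMPR1A and SMAD6 lie on opposite sides of 0 in the 2 knockdowns.

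Type I receptors are the kinases that phosphorylate the SMADs. Of the 5 genes, 1 was higher and 3 were lower in kd1, and 4 were lower in kd2, none of these 4 by as much as 1.5-fold. Over all genes, 38.2% were higher and 39.8% lower in kd1, and 36.9% were lower in kd2. BMPR1B, a BMP receptor, was at 27.5 and 31.4 CPM in control, 13.4 and 13.1 in kd1, and 22.6 and 21.5 in kd2. It was 2.22-fold lower in kd1 and 1.34-fold lower in kd2 (log2 -1.15 ± 0.094 and -0.42 ± 0.089; edgeR adjusted p = 3.18e-08 and 0.000679). ACVR1B, the activin receptor ALK4, was at 80.1 and 83.9 CPM in control, 49.95 and 50.4 in kd1, and 69.1 and 72.5 in kd2. Its log2 fold change was -0.71 ± 0.061 in kd1 and -0.21 ± 0.059 in kd2 (edgeR adjusted p = 5.79e-08 and 0.00507), and the kd2 call was lost without control replicate 2. TGFBR1, the TGF-beta receptor ALK5, was at 16.8 and 16.6 CPM in control, 11.4 and 12.4 in kd1, and 17.6 and 17.5 in kd2. The kd1 libraries of TGFBR1 lay below all others (log2 -0.49 ± 0.098, edgeR adjusted p = 0.000368), and kd2 was not called (0.073). BMPR1A, the other main BMP receptor, was at 60.6 and 55.9 CPM in control, 66.8 and 67.9 in kd1, and 46.7 and 51.2 in kd2. It was called higher in kd1 (0.21 ± 0.068, adjusted p = 0.0116) and lower in kd2 (-0.25 ± 0.069, adjusted p = 0.00429), but the kd1 call was lost without control replicate 2 or kd1 replicate 2, and the kd2 call without control replicate 1. After the GC and length correction the kd1 value of BMPR1A was 0.87 (adjusted p = 8.07e-11). ACVR1 was called lower in kd2 (-0.36), a call lost without control replicate 2 or kd2 replicate 1, and had a log2 value of 0.0021 in kd1.

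Among the type II receptors and the co-receptor, TGFBR3 stood apart. TGFBR3, or betaglycan, presents TGF-beta to its receptors and binds inhibin, and it was at 4.47 and 5.09 CPM in control, 36.7 and 33.6 in kd1, and 8.90 and 8.64 in kd2. It was 7.35-fold higher in kd1 and 1.83-fold higher in kd2 (log2 2.88 ± 0.11 and 0.88 ± 0.12; edgeR adjusted p = 9.57e-12 and 1.35e-05), with a difference of -2.003 ± 0.10 between the knockdowns. ACVR2B, a type II receptor for activins and GDF11, fell in both lines, from 31.2 and 27.6 CPM in control to 11.7 and 12.7 in kd1 and 9.69 and 11.2 in kd2. The log2 fold changes of ACVR2B were -1.27 ± 0.11 and -1.49 ± 0.11 (edgeR adjusted p = 4.21e-08 and 1.13e-08), and kd2 against kd1 was not called (adjusted p = 0.0926). ACVR2A, its close relative, was higher in kd2 (0.70 ± 0.10) and had a log2 value of 0.15 in kd1, where it was not called, although it had 0.71 (adjusted p = 3.2e-06) in kd1 after the GC and length correction. TGFBR2, the type II TGF-beta receptor, was at 4.57 and 3.28 CPM in control, 6.33 and 6.55 in kd1, and 5.71 and 4.58 in kd2. It was called higher in kd1 (0.71 ± 0.19, edgeR adjusted p = 0.00281), which was lost without control replicate 2 and with library totals alone (0.36, adjusted p = 0.0886), and was not called in kd2 (0.39 ± 0.19, adjusted p = 0.0732). BMPR2, the type II BMP receptor, was lower in kd1 (-0.72 ± 0.068) and had -0.15 in kd2. After correction for GC content and transcript length these BMPR2 values became 0.24 and 0.27.

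The SMADs of the BMP branch parted from each other. SMAD1 was at 35.2 and 34.3 CPM in control, 57.2 and 56.3 in kd1, and 62.8 and 62.3 in kd2. It was higher by log2 0.71 ± 0.063 and 0.85 ± 0.063 (edgeR adjusted p = 9.36e-08 and 1.69e-08). SMAD5, which acts beside SMAD1, was at 124 and 123 CPM in control, 53.8 and 54.2 in kd1, and 104 and 111 in kd2. It was 2.29-fold lower in kd1 and 1.15-fold lower in kd2 (log2 -1.19 ± 0.057 and -0.20 ± 0.055; edgeR adjusted p = 9.06e-11 and 0.00441). SMAD9, the remaining BMP SMAD, was lower in kd1 (-0.50 ± 0.072) and had 0.065 in kd2. SMAD3, of the TGF-beta and activin branch, was at 26.4 and 27.5 CPM in control, 18.0 and 15.9 in kd1, and 21.7 and 22.0 in kd2. SMAD3 was lower in both (log2 -0.67 ± 0.089 and -0.31 ± 0.087; edgeR adjusted p = 7.28e-06 and 0.00557), although the kd2 call was lost without control replicate 2. SMAD2 was higher in both (0.37 and 0.23), though not with libraries scaled by their totals alone (0.014 and 0.059), and SMAD4, the common partner, was higher in kd2 (0.55 ± 0.060) with -0.017 in kd1. Per kilobase of canonical transcript, the control level of SMAD5 was 17.6 CPM and that of SMAD1 11.6 CPM, whereas in kd1 SMAD1 was at 18.9 and SMAD5 at 7.70 CPM. In kd2, SMAD1 was at 20.8 and SMAD5 at 15.3 CPM per kilobase, so that the order of the pair was turned in both knockdowns.

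The intracellular and membrane inhibitors limit the signal at the receptor or in the nucleus, and 6 of 7 were called in each knockdown, 4 higher and 2 lower in both cases (85.7%, beside 78.0% of all genes in kd1 and 73.4% in kd2). BAMBI, a pseudoreceptor without a kinase domain, was at 5.19 and 6.44 CPM in control, 21.7 and 22.2 in kd1, and 25.9 and 22.2 in kd2. It was 3.77-fold and 4.14-fold higher (log2 1.92 ± 0.12 and 2.05 ± 0.12; edgeR adjusted p = 2.34e-09 and 1.61e-09), and kd1 and kd2 overlapped, with a difference of 0.13 ± 0.11 (adjusted p = 0.272). SKIL, or SnoN, a repressor that binds SMADs, was at 54.3 and 55.5 CPM in control, 107 and 109 in kd1, and 90.2 and 88.9 in kd2, higher by log2 0.98 ± 0.056 and 0.71 ± 0.056 (edgeR adjusted p = 6.28e-10 and 3.64e-08). SMAD7, an inhibitory SMAD of both branches, was at 28.4 and 28.8 CPM in control, 52.2 and 49.3 in kd1, and 45.5 and 43.0 in kd2, higher by 0.83 ± 0.070 and 0.63 ± 0.071 (edgeR adjusted p = 5.28e-08 and 1.44e-06). All knockdown libraries of BAMBI, SKIL and SMAD7 lay above both control libraries, but such separation was common. Both kd1 libraries lay above both control libraries for 24 of the 42 genes and below them for 16. In kd2 these numbers were 22 and 18.

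SMAD6, the inhibitory SMAD of the BMP branch, did not follow BAMBI, SKIL and SMAD7. It had 751 and 654 counts in control, 1019 and 858 in kd1, and 536 and 590 in kd2. It was called higher in kd1 (0.37 ± 0.097, edgeR adjusted p = 0.00323), a call lost without control replicate 2 and with libraries scaled by their totals alone (0.013, adjusted p = 0.917), and lower in kd2 (-0.51 ± 0.10, adjusted p = 0.000408). SKI, a relative of SKIL, was higher in kd2 (0.36) and had 0.12 in kd1, where it was not called. The ubiquitin ligases SMURF1 and SMURF2, which mark SMADs and receptors for degradation, were lower in kd1, at log2 -0.80 and -0.85. In kd2, SMURF1 had -0.13 and was not called, and the call of SMURF2 (-0.22, edgeR adjusted p = 0.0444) was lost on leaving out any library but kd2 replicate 2. The kd2 call of SMURF2 was also lost with a replicate block and with the DESeq2 Wald test. SMURF1 shares 735 exonic bases with TRRAP, and SMURF2 180 with CEP95, both on the other strand.

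All 4 ID genes were called higher in both knockdowns, as were 25.6% of all genes tested. ID1 (chr20:31605283-31606515, hg38, plus strand) was at 238 and 240 CPM in control, 2192 and 2327 in kd1, and 721 and 610 in kd2. It was 9.45-fold higher in kd1 and 2.78-fold higher in kd2 (log2 3.24 ± 0.074 and 1.48 ± 0.070; edgeR adjusted p = 8.12e-14 and 1.51e-10). ID3 (chr1:23557926-23559501, minus strand) was at 100.4 and 96.3 CPM in control, 1352 and 1369 in kd1, and 230.4 and 205 in kd2, which made it 13.8-fold and 2.21-fold higher (log2 3.79 ± 0.066 and 1.15 ± 0.061; edgeR adjusted p = 1.17e-14 and 5.05e-10). ID2 (chr2:8678845-8684461, plus strand) was at 294 and 304 CPM in control, 1498 and 1511 in kd1, and 625 and 562 in kd2, 5.04-fold and 1.99-fold higher (log2 2.33 ± 0.059 and 0.99 ± 0.057; edgeR adjusted p = 1.89e-13 and 1.15e-09). For these 3 genes the libraries formed 3 separate levels, control lowest, kd2 between and kd1 highest. The kd2 against kd1 differences were -1.76 ± 0.070, -2.65 ± 0.062 and -1.34 ± 0.057 for ID1, ID3 and ID2 (edgeR adjusted p = 5.08e-11, 1.31e-12 and 9.27e-11).

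ID4 (chr6:19837370-19842197, plus strand) had another order, at 115 and 114 CPM in control, 205 and 206 in kd1, and 242 and 223 in kd2. It was 1.79-fold higher in kd1 and 2.03-fold higher in kd2, with kd2 above kd1 by 0.18 ± 0.054 (edgeR adjusted p = 0.00843). That difference was lost on leaving out either kd1 library and was -0.15 after the GC and length correction. Within a library, where scaling plays no part, 0.871 and 0.842 ID3 counts were found per ID4 count in control, 6.60 and 6.65 in kd1, and 0.952 and 0.917 in kd2. These ratios set a transcript of 950 bases against one of 3873 bases and are not corrected for GC content or length. The 4 ID genes took 0.0848% and 0.0847% of all counts in the control libraries, 0.467% and 0.474% in kd1, and 0.180% and 0.162% in kd2. They were the 4 highest of the 42 genes per kilobase of transcript in control, from 243 CPM for ID1 and 230.0 for ID2 to 103.5 for ID3 and 29.7 for ID4. In kd1 ID3, at 1432 CPM per kilobase, stood above ID2 at 1158.

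The DNA upstream of these genes was searched because SMADs of the BMP branch are known to bind a GC-rich element paired with a SMAD box. The pattern searched was GGCGCC, then 5 bases of any kind, then GTCT, on both strands in the 2000 bases before the start of each canonical transcript. It was present at 71 of 19137 promoters (0.371%) and at 59 of 14358 promoters of tested genes (0.411%). Of the 42 tested genes, 1 held it, SKIL, with the match starting 558 bases before the start. Only these exact letters and this spacing were searched, so a gene without a match may still hold a variant of the element. The first 6 letters alone, GGCGCC, a palindrome, were far more common, at 46.5% of all promoters, 52.7% of those of tested genes and 24 of the 42 genes. Upstream of the canonical transcripts of 3 ID genes the core occurred once, 965 bases before the start for ID1, 408 for ID2 and 508 for ID4, and ID3 had none in this window. The ID2 match lies inside the gene's annotated span, which begins before its canonical transcript. The windows of 30 bases around these matches are printed from hg38 with the matched letters in capitals, the SKIL match including its spacer. They lie at chr3:170357150-170357179, chr20:31604312-31604341, chr2:8681636-8681665 and chr6:19836850-19836879, all on the plus strand.
SKIL: cggccagGGCGCCCCCGCGTCTggcccatc
ID1: gaccgcccgcgcGGCGCCagcctgacagtc
ID2: aatgcatatttaGGCGCCcagggtctgccc
ID4: ggagggtccctgGGCGCCgtgctattagga
These matches describe letters only. No binding was measured here.

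Transcript length moved with the changes. Over the 42 genes, the rank correlation between log2 fold change and canonical transcript length was -0.60 in kd1, -0.40 in kd2 and 0.51 in kd2 against kd1, and without the ID genes it was -0.50, -0.27 and 0.41 over 38 genes. Over 15950 tested genes with a length it was -0.32, -0.12 and 0.31. These are correlations across genes of the same libraries, and genes are not independent replicates. ID1, ID2 and ID3 are short, at 983, 1299 and 950 bases. With a correction for GC content and length, the kd1 values were 2.39 for ID1, 2.02 for ID2, 2.98 for ID3 and 1.19 for ID4, and the kd2 values were 1.35, 0.85, 1.02 and 1.04. NBL1 then had 3.45 and 3.31, BMP2 1.89 and 1.55, BAMBI 1.60 and 1.95, and TGFBR3 3.49 and 1.08. Among genes with long transcripts the same correction brought ACVR2B to -0.36 and -0.96, SMAD5 to -0.48 and -0.096, and GDF11 to -1.90 and -0.23 in kd1 and kd2. The kd2 call of SMAD5 was lost there (adjusted p = 0.0761), as were the kd2 calls of SMAD3 (-0.081), ACVR1B (-0.080), BMPR1A (-0.11) and SMURF2 (-0.044) and the kd1 call of BMP4 (0.50). TGFBR1 in kd1 became 0.18 and SMAD9 in kd1 0.047, and neither was called any longer. SMAD2, whose canonical transcript has 34626 bases, moved to 1.70 and 1.18, values that rest on that long transcript model and may be over-corrected. SMAD4 in kd1 moved to 0.78 and SKIL in kd1 to 1.68, and TGFBR2 to 1.14 and 0.55, called in both knockdowns. The part of transcript length in these changes was not tested.

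The 5 genes called in opposite directions, LTBP1, LTBP3, FSTL3, BMPR1A and SMAD6, were all higher in kd1 and lower in kd2. They were chosen as called in both knockdowns and in the comparison without controls. The log2 differences, kd2 minus kd1, were -0.99 for LTBP1, -1.46 for LTBP3, -1.28 for FSTL3, -0.46 for BMPR1A and -0.87 for SMAD6. LTBP3 was called in both knockdowns with every library left out in turn, whereas without control replicate 2 it was the only 1 of the 5 so called. Without control replicate 1, and without kd1 replicate 2, 3 such genes were counted.

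**Figure D3:**
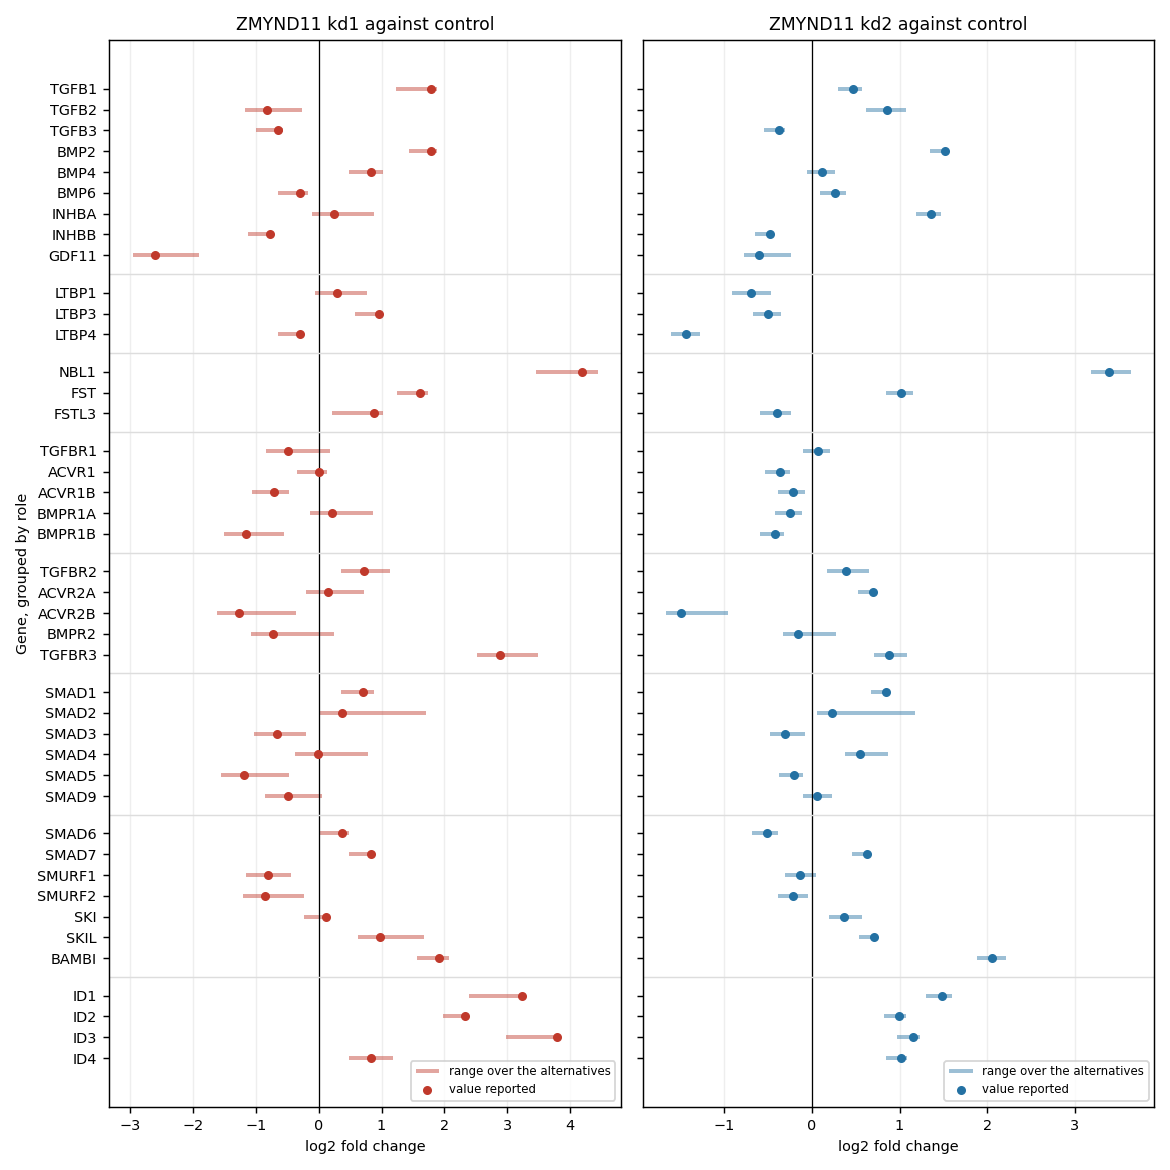
Reported log2 fold change (points) of each of the 42 genes and its range over 14 alternative analyses (bars), for kd1 against control at left and kd2 against control at right. The ID genes, NBL1, BMP2 and BAMBI stay to the right of 0 throughout, while the range reaches both sides of 0 for 10 genes in kd1 and 5 in kd2.

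Among 63 other genes of the pathway, listed by their textbook place in it, 54 were tested, and 42 (77.8%) were called in each knockdown, beside 78.0% and 73.4% of all genes in kd1 and kd2. In kd1 20 were higher and 22 lower, and in kd2 23 were higher and 19 lower, while 33 (61.1%, beside 68.8% of all genes) differed between kd2 and kd1, 17 higher and 16 lower. With the GC and length correction, the split became 24 higher and 14 lower in kd1 and 12 higher and 23 lower in kd2 against kd1. With library totals alone it moved the other way, to 15 higher and 24 lower in kd1 and 22 higher and 15 lower in kd2 against kd1. Across the knockdowns, 17 (31.5%) were higher in both, 16 (29.6%) were lower in both and 4 (7.41%) were called in opposite directions, beside 25.6%, 27.0% and 9.10% over all genes tested. TAB2 was listed at 0 in every library.

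The response genes did not share one direction. CCN2, a matricellular gene induced by TGF-beta and by YAP, had 7716 and 7927 counts in control, 478 and 460 in kd1, and 304 and 246 in kd2, with log2 fold changes of -4.11 ± 0.076 and -5.02 ± 0.082 (edgeR adjusted p = 1.39e-14 and 1.24e-14). TGFBI, a TGF-beta-induced matrix protein, had 268 and 255, 109 and 79, and 49 and 46 counts (log2 -1.53 ± 0.17 and -2.65 ± 0.19). PMEPA1, an inhibitor that TGF-beta induces, did not share the direction of CCN2 and TGFBI, with log2 values of 0.018 in kd1, where it was not called, and 0.41 ± 0.051 in kd2. Over all genes tested, 38.2% were called higher and 39.8% lower in kd1, and 36.5% higher and 36.9% lower in kd2. Of the 12 response genes listed, 11 were tested. The called ones were 7 higher and 3 lower in kd1 and 6 higher and 3 lower in kd2, CCN2 and TGFBI among the lower ones. Those called higher included JUNB (log2 2.96 and 1.05) and CDKN1A (0.86 and 2.42), named after their values were seen.

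FURIN, the protease that cleaves TGF-beta family precursors, had 3652 and 3795 counts in control, 19259 and 16457 in kd1, and 11961 and 12255 in kd2 (log2 2.21 ± 0.055 and 1.52 ± 0.054; edgeR adjusted p = 1.54e-13 and 8.57e-12). ITGB8, an integrin subunit that activates latent TGF-beta, had 338 and 343, 193 and 209, and 21 and 20 counts, lower by log2 -0.80 ± 0.15 and -4.23 ± 0.21. The kd1 value of ITGB8 was 0.036 after the GC and length correction. LDLRAD4, which keeps SMAD2 and SMAD3 from the receptor, was higher (1.96 ± 0.16 and 0.58 ± 0.17), and TGIF2, a nuclear corepressor of SMADs, was lower (-1.35 ± 0.11 and -0.91 ± 0.11). The receptor ACVRL1 had 28 and 28 counts in control, 3 and 4 in kd1, and 0 in both kd2 libraries, at least 21.2-fold lower in kd2 against a floor of 3 counts over the 2 libraries. ACVR1C, or ALK7, had 59 and 82, 20 and 28, and 14 and 12 counts (log2 -1.59 ± 0.35 and -2.61 ± 0.39), and its kd1 call was lost after the GC and length correction (adjusted p = 0.0589). MSTN, encoding myostatin, had 20 and 20, 3 and 0, and 2 and 5 counts, and INHA, the inhibin alpha subunit, 19 and 15, 7 and 1, and 3 and 7. MSTN, INHA and ACVRL1 passed the filter on low counts through the control libraries, where they are high, so a lower call was favoured by the filter, and they are among the 16 genes counted as lower in both knockdowns. With at least 10 counts required in every library none of the 3 was tested, and the other pathway genes called were 19 higher and 18 lower in kd1 and 23 higher and 16 lower in kd2.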

How the data were processed

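The authors deposited a table of gene counts, aligned to hg38 with STAR 2.7.9a after FastQC 0.11.9. HTSeq 0.13.5 is named in the submitters' processing notes, and the strand setting was not given in the sources used here. Libraries held 26844128 to 38193748 counts. Genes were filtered with filterByExpr, leaving 16510 of 35322, scaled by TMM and tested in one quasi-likelihood fit over the 6 libraries (edgeR 4.0.16, R 4.3.3, 3 residual degrees of freedom). Calls had a Benjamini-Hochberg adjusted p under 0.05 over all genes tested. CPM values use TMM-scaled library sizes. Positions, lengths and sequences came from GENCODE 44 and hg38, which named 32852 of the symbols. Genes and lists were chosen with earlier results of these data known. Full values were given for NBL1, for up to 3 genes per role with the largest mean change among those called, for genes in opposite directions, for up to 2 other pathway genes per role called alike in both knockdowns, and for CCN2 and PMEPA1. A few items that these rules or the lists cover are not reported here. Alternatives were DESeq2 1.42.0 (size factors and Wald test), library totals, other filters, a replicate block, a GC and length correction (lowess, span 0.3), fits of only the groups compared, and leaving out each library. On simulated counts of 16074 genes, of which 200 were changed in each knockdown, 88.7% of changes of log2 1 and 97.9% of log2 2 were recovered for kd1 against control. There 4.23% of calls were false. In the data 78.0% of genes were called in kd1, far more than were changed in the simulation, so these rates are not error rates of the reported calls.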

Additional observations from a re-analysis of the deposited data

Results flagged for a closer look

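Among genes called against control in both knockdowns, 5 had opposite signs and a called difference between kd2 and kd1, the called difference being part of how they were chosen. The log2 differences were -1.46 for LTBP3, -1.28 for FSTL3, -0.993 for LTBP1, -0.873 for SMAD6 and -0.462 for BMPR1A (edgeR adjusted p = 6.35e-11, 1.6e-07, 9.18e-06, 2.06e-06 and 2.88e-05). No group held enough libraries for a search for single libraries that stand apart.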

How the results depend on the processing

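With 2 libraries per group and 3 residual degrees of freedom, small differences of low genes such as TGFB2, BMP4 and BMP6 are the least certain. Under every alternative the counts of called genes stayed within 1.5 times those reported. Leaving out 1 library gave 33 to 38 called in kd1, 29 to 37 in kd2 and 30 to 38 in kd2 against kd1, and for the other pathway genes 38 to 44, 39 to 44 and 30 to 34. A lone library in a group was assumed to vary like the other groups. Genes called in opposite directions numbered 3 after the GC and length correction and 1 to 6 on leaving out a library, the lowest without control replicate 2. The replicate block gave 35, 33 and 35 called, 4 in opposite directions, and 41, 42 and 33 other pathway genes. Deviations of libraries with the same number correlated at 0.0062, -0.0264 and -0.044 over 16510 genes. Whether libraries with the same number shared a culture or preparation was not tested.

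The median log2 fold change of the genes in kd1 was 0.234 with DESeq2 size factors and with the DESeq2 Wald test, -0.126 with library totals, 0.185 with at least 10 counts in every library, 0.534 after the GC and length correction, and 0.221 to 0.254 on leaving out a library. In kd2 it was 0.00257 with library totals, 0.253 without a filter, 0.133 with at least 10 counts, 0.305 after the GC and length correction, 0.162 with only the 2 groups compared, and 0.149 to 0.221 on leaving out a library. In kd2 against kd1 it was -0.00752 with size factors, 0.181 with library totals, -0.00771 with the Wald test, 0.00595 without a filter, 0.000525 with at least 10 counts, -0.102 after the GC and length correction, and -0.141 to -0.00517 on leaving out a library.

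Values that changed sign and were called before or after the change, with library totals in kd1, were -0.108 for INHBA, -0.0578 for LTBP1, -0.352 for ACVR1, -0.145 for BMPR1A, -0.235 for SKI and -0.337 for PMEPA1, and in kd2 against kd1 0.0443 for SMAD2. All of these in kd1 lie above that scaling's all-gene median of -0.383. After the GC and length correction they were, in kd1, 0.183 for TGFBR1, 0.244 for BMPR2, 0.778 for SMAD4, 0.0468 for SMAD9 and 0.0363 for ITGB8, in kd2 0.273 for BMPR2, and in kd2 against kd1 -0.00992 for ACVR2A and -0.154 for ID4. The cause was not tested. Of the 42 genes, 25, 28 and 21 changed neither a call nor a called direction under all 14 alternatives in the 3 comparisons.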
